A study of Homo sapiens with 24 samples.

Results

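Differentiated N/TERT-1 keratinocytes with knockdown of both KAT2A and KAT2B were compared with cells in which only KAT2B was knocked down. N/TERT-1 (nTERT-1 in the labels) is a telomerase-immortalised human keratinocyte line that still stratifies and forms cornified cells in culture. The comparison covers 4 of the series' 24 libraries, chosen by their labels: 2 labelled KAT2AB_KD and 2 labelled KAT2B_KD, all at the Differentiated stage, which the deposited sample table puts at day 4. All groups carry the treatment label of keratinocyte differentiation, and both groups compared carry the KAT2B knockdown, so that KAT2A knockdown is the labelled difference between them. As reference points the 2 KAT2A_KD and 2 NT libraries of the Differentiated stage were used, NT being a label without either knockdown that the sources do not spell out, and the KAT2AB_KD and KAT2B_KD libraries of the Confluent stage, with 2 libraries each. The method of knockdown, the number of clones and whether the libraries of a group came from separate cultures are not given in the sources used here, so each p-value speaks only to the spread between libraries, which may be technical.

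KAT2A (GCN5) and KAT2B (PCAF) are paralogous lysine acetyltransferases. Each can serve as the catalytic subunit of SAGA and of ATAC, coactivator complexes in which they acetylate histone H3 and other proteins, and 1 of them is thought to sit in a complex at a time. During terminal differentiation, keratinocytes leave the cell cycle, switch from basal to spinous keratins, and finally make the proteins and lipids of the cornified layer, many of them from a gene cluster called the epidermal differentiation complex.

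The 4 libraries held 15065915 and 13254585 counts (KAT2AB_KD) and 16054003 and 14717135 counts (KAT2B_KD). Values below are CPM, read counts relative to library sizes that were adjusted with TMM factors. KAT2B_KD 1 had the lowest of the 4 scaling factors, at 0.6661 against 0.8058 to 0.9924 in the others, and EEF1A1 took the most reads in it, where KRT6A took the most in the other 3 libraries. Across genes, log2 CPM correlated with r = 0.963 (Pearson) within each group, and with 0.922 to 0.947 between the groups (genes are not independent replicates). All 10 keratinocyte marker genes were expressed, with sums of 39827 and 53336 CPM in KAT2AB_KD and 54299 and 82364 in KAT2B_KD. Of these markers IVL was higher in KAT2AB_KD and TP63, KRT1 and KRT5 were lower, with values given below. Of 30 markers of fibroblasts, melanocytes, immune and endothelial cells, 9 were tested and 1 was called, the transcription factor MITF, at 7.58 and 5.40 CPM in KAT2AB_KD and 1.31 and 0.673 in KAT2B_KD (log2 2.73, adjusted p = 0.000756). The melanocyte list summed to 13.8 to 16.7 CPM in KAT2AB_KD and 6.95 to 9.82 in KAT2B_KD, with TYR and DCT at 0 reads in all 4 libraries. The summed fibroblast list stood at 35.8 CPM in both KAT2AB_KD libraries and 31.9 to 33.7 in KAT2B_KD, nearly all of it COL1A1 (31.0 to 35.3), with COL3A1 and POSTN at 0 reads. Immune markers summed to 51.0 to 57.5 against 25.6 to 46.5 CPM, with CD3E and CD74 at 0 reads, and endothelial markers to 1.98 to 3.46 against 0.842 to 1.42, with PECAM1 and CDH5 at 0 reads. The part of these cell types in the differences below was not tested.

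KAT2A stood at 1.98 and 6.85 CPM in the KAT2AB_KD libraries and at 13.6 and 17.0 in KAT2B_KD. It was 3.03 and 4.94 CPM in KAT2A_KD and 12.8 and 10 in NT. Both KAT2AB_KD libraries were thus below both KAT2B_KD libraries (log2 -1.78, SE 0.47, adjusted p = 0.0182), a call lost without KAT2AB_KD 1 (adjusted p = 0.157) or KAT2B_KD 2 (adjusted p = 0.0704). KAT2B, the knockdown target that both groups share, stood at 5.85 and 18.9 CPM in KAT2AB_KD and 4.58 and 8.59 in KAT2B_KD, against 44.8 and 40.4 in NT. The groups overlapped (log2 0.90, SE 0.49, adjusted p = 0.261). KAT2AB_KD 2 had more KAT2B than either KAT2B_KD library and more KAT2A than KAT2AB_KD 1, so both targets were less reduced in it. Each list count of KAT2AB_KD against KAT2B_KD is also given without a library, this or another, where that moves it by more than 1.5 times. For the tests of differences between backgrounds and between stages, list counts were not taken without a library.

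**Figure D1:**
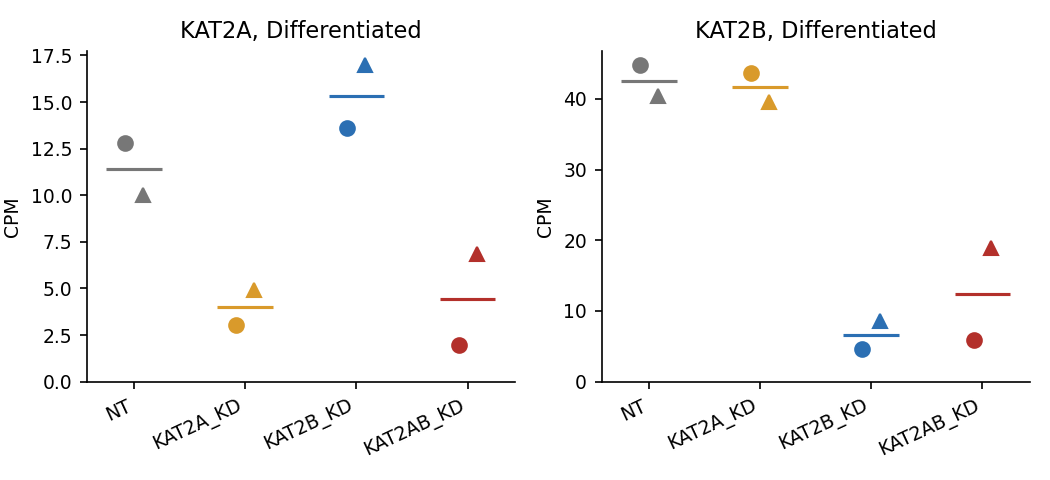
KAT2A (left) and KAT2B (right) in CPM on linear axes in the 4 genotypes at the Differentiated stage. Circles are library 1, triangles library 2 and bars the mean of 2. KAT2A is at 1.98 and 6.85 CPM in KAT2AB_KD against 13.6 and 17.0 in KAT2B_KD, and KAT2B at 18.9 CPM in KAT2AB_KD 2 is above both KAT2B_KD libraries.

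With both genes knocked down, late cornified envelope genes were many times more abundant than with KAT2B knockdown alone, and 16 of 25 granular layer and envelope genes, 8 of 15 EGF receptor family and ligand genes and 6 of 18 metalloprotease and inhibitor genes were higher. In the DNA replication list and in the mitosis list 13 of 30 genes each were lower, as were TP63, KRT1 and CXCL14. The lists were chosen with earlier results of these data known, so list counts and medians, here and below, are descriptions. Of 15757 genes tested, 1024 were higher and 715 lower in KAT2AB_KD than in KAT2B_KD, which is 11.0% of the genes (6.50% higher and 4.54% lower) at an adjusted p under 0.05 in edgeR's quasi-likelihood test. Of the calls, 719 higher and 481 lower changed by at least 1 on the log2 scale. The 4 libraries separated without overlap for 45.6% of all genes tested. The calls numbered 1018 without KAT2AB_KD 2 and 682 without KAT2B_KD 1, and 456 genes (357 higher, 99 lower) passed without each library in turn. A fit of the 4 libraries alone, in which the spread rests on 2 libraries a group, called 386 genes, 321 higher and 65 lower. It called 22 SPRR and LCE genes and 12 granular layer genes higher but only 3 lipid barrier genes and 2 of the EGF receptor list. Genes given below with a fold difference passed the test of KAT2AB_KD against KAT2B_KD. Unless a library is named beside it, a gene that passed that test also did so without each of the 4 libraries. This does not extend to the differences between backgrounds or between stages. The data are from bulk RNA, in which fewer cells of a type and less RNA per cell cannot be told apart.

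**Figure D2:**
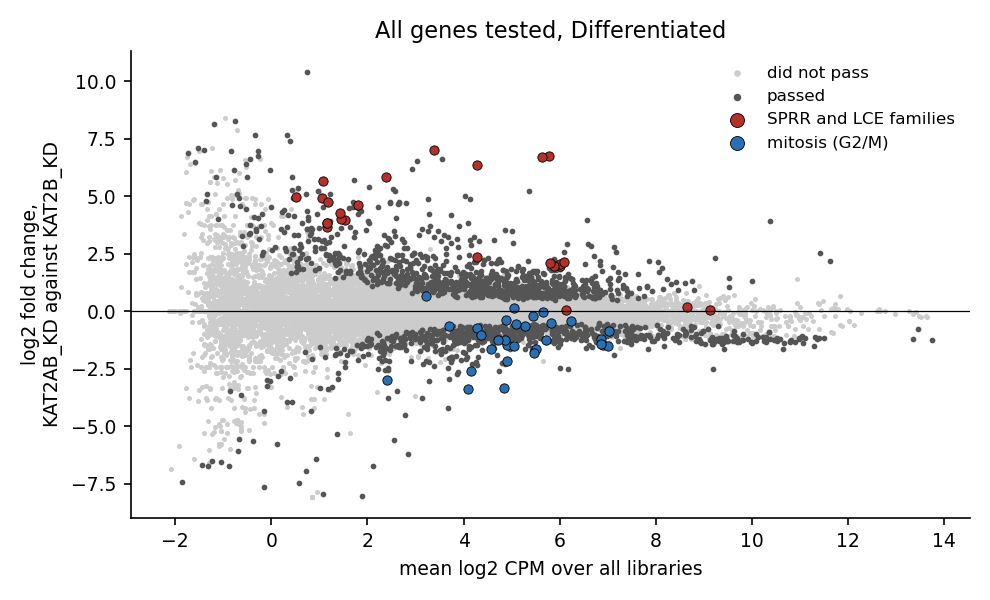
Log2 fold change of KAT2AB_KD against KAT2B_KD (y axis) by mean log2 CPM over all 24 libraries (x axis) for 15757 genes. Dark points passed the test (1739 genes). Large red points are the SPRR and LCE genes, of which 22 of 25 passed, all higher; large blue points are mitosis genes, of which 13 of 30 passed, all lower.

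The LCE3 genes, late cornified envelope genes whose small proteins are laid under the plasma membrane of cornifying cells, took 4 of the 5 highest log2 fold changes of the genes named by size (LCE3A, LCE3D, LCE3E and LCE3B, then TCN1). LCE3D was at 429 and 494 CPM in the KAT2AB_KD libraries and 4.02 and 4.63 in KAT2B_KD. LCE3E was at 386 and 454 against 3.27 and 4.71 CPM. LCE3C was at 145 and 183 against 2.34 and 1.72 CPM. Every KAT2AB_KD library was far above every KAT2B_KD library, and the groups did not overlap. The fitted differences were 106-fold for LCE3D (log2 6.73, SE 0.33, adjusted p = 9.87e-10), 104-fold for LCE3E and 81.1-fold for LCE3C (log2 6.34, SE 0.41, adjusted p = 1.23e-08). LCE3A was at 80.4 and 93.4 against 0.374 and 0.897 CPM (130.5-fold). LCE3B was at 83.4 and 116 against 1.31 and 0.747 CPM (97.8-fold). Each of the 5 had NT libraries between the groups, as with LCE3D at 91.4 and 119 CPM in NT, where KAT2A_KD was at 94.4 and 63.7. LCE3D and LCE3E, close copies, stood at a ratio of 0.984 to 1.23 in the 4 libraries, and how reads that fit both were counted is not given. Copies elsewhere in the data had the same values throughout, as with HIST2H4A and HIST2H4B (both log2 -1.1967, mean log2 CPM 2.662). The same reads may thus be counted for several copies. The values of single family members are therefore uncertain, and close copies may not be separate observations.

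The promoters of 3 of these genes share a stretch of sequence, shown here because the genes differed together. The 150 bases before the gene start are given 5′ to 3′ from RefSeq (GRCh38.p14), at chr1:152600084-152600233 on the plus strand for LCE3C, chr1:152580517-152580666 on the minus strand for LCE3D and chr1:152566781-152566930 on the minus strand for LCE3E. Capitals mark the run of at least 10 bases found in all 3. For comparison the same window is given for MMP10, a metalloprotease gene described below, at chr11:102780629-102780778 on the minus strand, with an AP-1 motif and a TATA box in capitals.
LCE3C: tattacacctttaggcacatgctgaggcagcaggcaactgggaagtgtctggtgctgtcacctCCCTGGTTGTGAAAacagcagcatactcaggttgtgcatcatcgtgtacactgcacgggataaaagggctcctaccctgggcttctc
LCE3D: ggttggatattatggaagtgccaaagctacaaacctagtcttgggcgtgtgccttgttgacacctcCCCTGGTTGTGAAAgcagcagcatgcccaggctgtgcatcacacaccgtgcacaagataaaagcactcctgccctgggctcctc
LCE3E: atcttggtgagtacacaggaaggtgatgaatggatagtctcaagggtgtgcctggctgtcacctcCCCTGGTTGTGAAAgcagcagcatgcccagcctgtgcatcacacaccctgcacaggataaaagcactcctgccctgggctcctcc
MMP10: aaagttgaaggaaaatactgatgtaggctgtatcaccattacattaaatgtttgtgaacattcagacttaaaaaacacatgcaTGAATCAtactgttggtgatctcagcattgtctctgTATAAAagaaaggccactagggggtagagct
The shared run is 14 bases long, CCCTGGTTGTGAAA, and is not in the windows of LCE3A, LCE3B or MMP10. A second element, GATAAAAG, chosen after the sequences were seen, starts 29 bases before the gene start in LCE3C and LCE3D and 30 before it in LCE3E, and lies on the other strand in LCE3B. On both strands it occurs in 0.769% of 35116 RefSeq promoters (250 bases before the start). The AP-1 motif TGANTCA (6.57% of promoters) and the TATA box TATAAA (10.7%) have no match in the 250 bases of any LCE3 gene, and 1 match each in MMP10, starting 67 and 31 bases before the gene start. Only these exact letters were searched, so a variant of the TATA box would not be counted. The letters ATAAA are part of both TATAAA and GATAAAAG. All matches given are matches of letters, which were not tested against the expression data.

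SPRR genes encode small proline-rich proteins that transglutaminases cross-link into the envelope. Of 25 genes of the SPRR and LCE list, which holds 4 of the LCE3 genes above but not LCE3B, 22 were higher and 0 lower, and the median log2 fold change was 3.95, against -0.0017 over all genes tested. The 22 were called without each library in turn and with the 4 libraries alone. In all 22 the NT libraries lay between the groups. LCE5A was at 34.5 and 49.1 CPM against 1.12 and 0.374 (57.2-fold, adjusted p = 8.54e-06), and LCE2C, with 6 reads in KAT2B_KD, at 13.1 and 13.4 against 0.281 and 0.224. LCE1B was at 20.2 and 21.9 against 1.22 and 0.523 CPM (log2 4.62, SE 0.53, adjusted p = 1.83e-05). The 10 genes LCE1A to LCE1F and LCE2A to LCE2D had log2 fold changes of 3.64 (LCE1A) to 5.67 (LCE2C), and all 10 passed. Among them LCE1A and LCE1D, LCE1C and LCE1E, and LCE2B and LCE2D are close copies, with count ratios of 0.903 to 1.39 in the 4 libraries, and share the uncertainty given for LCE3D. SPRR4 was at 8.49 and 5.02 against 0.281 and 0.149 CPM (log2 4.95). The SPRR2 genes differed by less than the LCE genes named, with SPRR2F at 321 and 211 against 73.5 and 49.8 CPM (log2 2.11, SE 0.34, adjusted p = 0.000446) and SPRR2A at 366 and 231 against 94.7 and 58.4 (3.90-fold). SPRR2 genes are near-identical and share the uncertainty given for LCE3D, so the 22 genes called may not be 22 separate observations. The 3 members that did not pass were SPRR1A, SPRR1B and SPRR3: SPRR1B was at 1631 and 1166 CPM in KAT2AB_KD and 1509 and 1156 in KAT2B_KD (log2 0.07, SE 0.33, adjusted p = 0.929). The 2 families were therefore not uniform, with fold differences over 100 in LCE3 genes and a difference near 0 in SPRR1B.

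**Figure D3:**
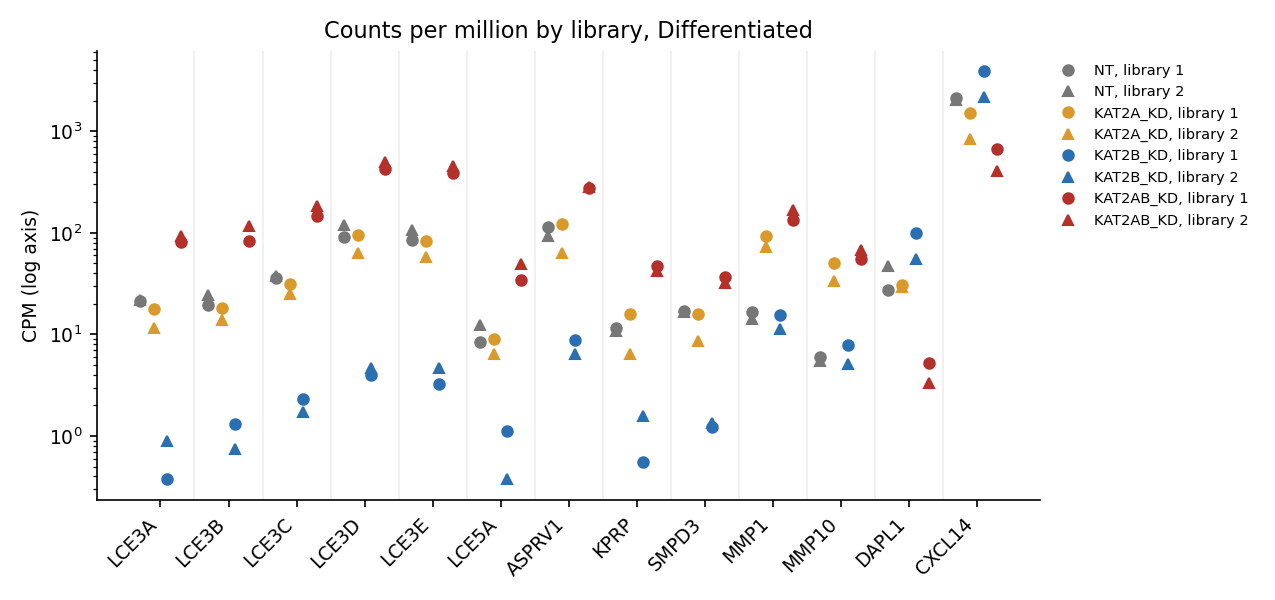
CPM on a log axis in each of the 8 Differentiated libraries for 13 genes, by genotype (colour) and library (circle 1, triangle 2). For LCE3A to LCE3E, LCE5A, ASPRV1, KPRP and SMPD3 the KAT2AB_KD libraries are highest and the KAT2B_KD libraries lowest. MMP1 and MMP10 are high in KAT2AB_KD and KAT2A_KD, and DAPL1 and CXCL14 are lowest in KAT2AB_KD and highest in KAT2B_KD.

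Of 25 genes of the granular layer and the cornified envelope, 16 were higher and 1 lower (median log2 2.19), with 14 or 15 higher without 1 library. ASPRV1, the protease that processes profilaggrin, was at 279 and 285 CPM against 8.89 and 6.35 (37.1-fold, log2 5.21, SE 0.37, adjusted p = 1.27e-07). KPRP, a proline-rich keratinocyte protein, was at 46.9 and 41.9 against 0.561 and 1.57 CPM (40.2-fold). CDSN, which encodes the adhesive protein corneodesmosin, was at 379 and 677 against 20.2 and 47.1 (15.6-fold). KAT2AB_KD libraries were highest of the 8 for ASPRV1, KPRP and CDSN. FLG2 was at 6695 and 8856 against 332 and 683 CPM (log2 3.94, SE 0.57, adjusted p = 0.000396). FLG, whose product filaggrin bundles keratin filaments, was at 11139 and 8856 against 1149 and 2323 (log2 2.53, adjusted p = 0.021). The FLG call was lost without KAT2AB_KD 1 (adjusted p = 0.0517) or KAT2B_KD 1 (adjusted p = 0.193). For FLG the NT libraries, at 16340.4 and 11555 CPM, were above both groups, so KAT2AB_KD did not exceed NT there. LOR, which encodes the envelope protein loricrin, had the same order, with 30.0 and 30.0 CPM in KAT2AB_KD, 3.37 and 3.36 in KAT2B_KD and 78.0 and 81.0 in NT (log2 3.15, SE 0.43, adjusted p = 0.000614).

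The kallikreins, proteases that cleave the junctions of shedding cells, split within the list. KLK7 was at 78.3 and 89.4 CPM against 21.5 and 25.9 (3.54-fold). KLK13 was at 29.7 and 30.6 against 3.46 and 3.14 CPM (9.13-fold). KLK14 was at 19.0 and 27.5 against 3.74 and 3.14 (6.76-fold). These 3 passed, while KLK11 did not (log2 0.89, adjusted p = 0.0852), and for KLK7 and KLK14 both NT libraries lay above KAT2AB_KD, as in KLK7 at 183 and 155 CPM. TGM3, a transglutaminase of the envelope, was at 67.0 and 82.0 CPM in KAT2AB_KD and 77.9 and 60.7 in KAT2B_KD, overlapping groups with log2 0.11 (SE 0.33, adjusted p = 0.884). The 1 lower member was KRT2, a keratin of upper spinous cells, at 1057 and 678 against 2002 and 1187 CPM (log2 -0.88, adjusted p = 0.0393), a call lost without KAT2B_KD 1 (0.441) or KAT2AB_KD 2 (0.279).

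Epidermal lipid barrier genes make and secrete the ceramides between cornified cells. Of 25 tested, 13 were higher and 0 lower (median log2 0.81), with 5 higher without KAT2AB_KD 2 and 7 without KAT2B_KD 1. SMPD3, a sphingomyelinase, was at 36.7 and 31.9 CPM against 1.22 and 1.35 (26.5-fold, log2 4.73, SE 0.56, adjusted p = 3.23e-05). UGCG, the glucosylceramide synthase, was at 149 and 136 against 63.2 and 54.6 CPM (2.42-fold). CYP4F22, which hydroxylates the very long fatty acids of ceramides, was at 109 and 109.6 against 35.4 and 28.2 (3.44-fold). SMPD3 alone of these 3 was above both NT libraries (16.9 and 16.7 CPM) in KAT2AB_KD. In 9 of the 13 genes the NT libraries overlapped KAT2AB_KD and were apart from KAT2B_KD, as in UGCG, at 123 and 144 CPM in NT. ABCA12, the lipid transporter of lamellar granules, was at 834 and 1480.3 against 307 and 572 CPM (log2 1.40, adjusted p = 0.0162) and lost its call without KAT2B_KD 1 (0.214) or KAT2AB_KD 2 (0.181).

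Spinous genes, the earlier programme, were mixed. Of 21 tested, 7 were higher and 1 lower (median log2 0.48), with 7 and 2 without KAT2AB_KD 1 and 6 and 3 without KAT2B_KD 2. KRT80 was at 640.0 and 734 CPM against 272 and 179.9 (3.04-fold). IVL, which encodes the envelope precursor involucrin, was at 48.0 and 61.2 against 15.6 and 18.3 CPM (3.22-fold). The transglutaminase TGM5 was at 115 and 200.0 against 47.0 and 35.9 (3.80-fold). The lower member was KRT1, the main spinous type II keratin, at 3735 and 2248 CPM in KAT2AB_KD and 10600.3 and 6312 in KAT2B_KD (log2 -1.50, SE 0.29, adjusted p = 0.00237). NT stood at 11819 and 10059.7 CPM, so KRT1 in KAT2AB_KD was below both NT and KAT2B_KD, whereas KRT80, IVL and TGM5 were above KAT2B_KD. KRT10, the partner of KRT1 (log2 -0.89, adjusted p = 0.104), and the desmosomal cadherin DSG1 (log2 -0.39, adjusted p = 0.592) did not pass.

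Among basal genes 1 of 19 was higher and 4 were lower, with 0 and 2 without KAT2B_KD 1, 0 and 3 without KAT2AB_KD 2, 2 and 2 without KAT2B_KD 2 and 3 and 2 without KAT2AB_KD 1. TP63, the master regulator of the epithelial lineage, was at 90.8 and 99.3 CPM in KAT2AB_KD and 227 and 207 in KAT2B_KD (log2 -1.19, SE 0.18, adjusted p = 0.000242). KAT2AB_KD overlapped NT, at 89.8 and 109 CPM, and KAT2B_KD stood above it. KRT5 was at 12183 and 9752 against 22332 and 15579 CPM (log2 -0.79, adjusted p = 0.0476), lost without KAT2B_KD 1 (0.339) or KAT2AB_KD 2 (0.222), and KRT14 did not pass (log2 -0.19, adjusted p = 0.709).

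Of 24 transcription factors of keratinocyte differentiation, 4 were higher and 5 lower. The counts were 5 and 1 without KAT2AB_KD 1, which turns the balance, 2 and 3 without KAT2B_KD 2, and 3 and 3 without KAT2AB_KD 2 or KAT2B_KD 1. MAF, a factor of late differentiation, was lower, at 79.8 and 66.5 against 182 and 157 CPM (log2 -1.21, adjusted p = 0.00079). OVOL1, a zinc-finger factor of differentiating cells, was higher (105 and 91.5 against 49.1 and 40.1 CPM, 2.20-fold). GRHL3 (log2 -0.13, adjusted p = 0.776) and ZNF750 (log2 0.31, adjusted p = 0.561) did not pass. KLF4 was at 118 and 120.2 against 65.8 and 53.5 CPM (log2 1.0, adjusted p = 0.0184), a call lost without KAT2B_KD 1 (0.0613), KAT2AB_KD 2 (0.0714) or KAT2B_KD 2 (0.0901).

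**Figure D4:**
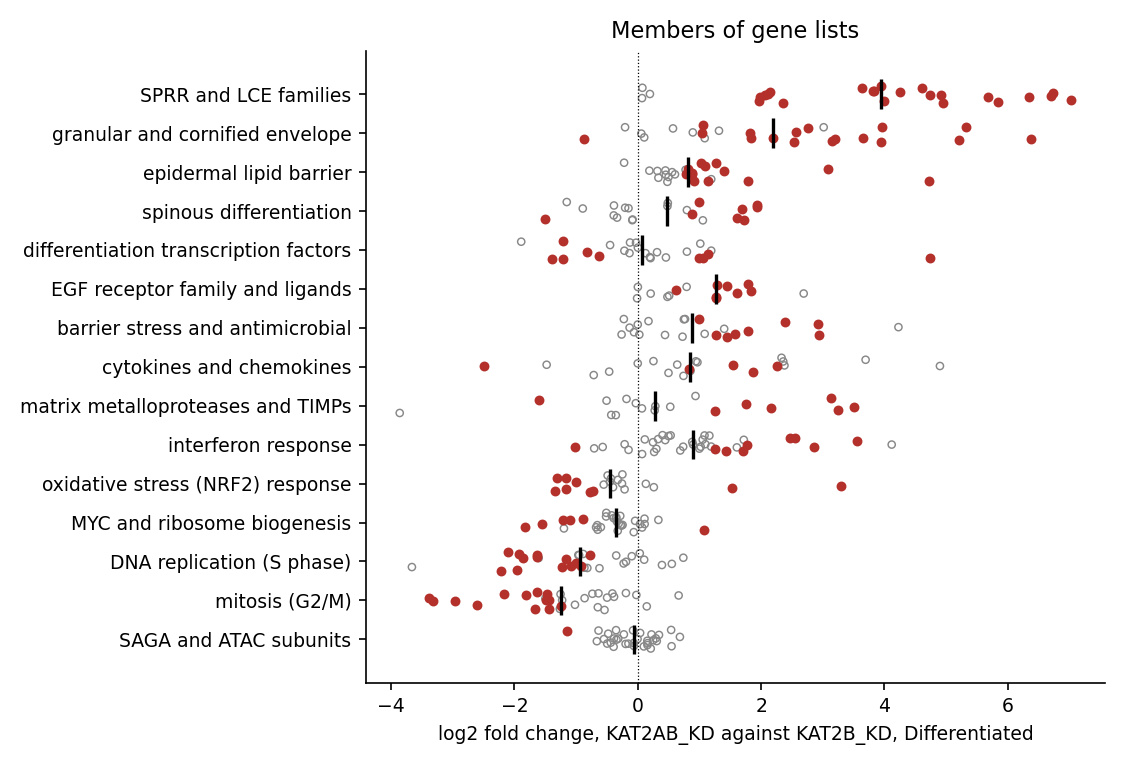
Log2 fold change of KAT2AB_KD against KAT2B_KD (x axis) for the tested members of 15 gene lists (rows, points spread vertically to be visible). Red points passed the test, open points did not, and black bars are medians. The SPRR and LCE list has the highest median (3.95) of the 15 and the mitosis list the lowest (-1.25).

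Matrix metalloproteases, which cut extracellular matrix, differed in a small set of genes. Of 18 genes tested with their inhibitors, 6 were higher and 1 lower, with 4 and 0 without KAT2AB_KD 2 or KAT2B_KD 2, 5 and 0 without KAT2B_KD 1 and 6 and 0 without KAT2AB_KD 1. The collagenase MMP1 was at 133 and 169.8 CPM in KAT2AB_KD and 15.6 and 11.2 in KAT2B_KD (11.3-fold, log2 3.50, SE 0.26, adjusted p = 9.85e-08). MMP10, a stromelysin, was at 55.5 and 67.3 against 7.86 and 5.16 CPM (9.48-fold). MMP3, the other stromelysin named, was at 20.6 and 27.4 against 3.18 and 2.32 CPM (8.76-fold). In NT they were near KAT2B_KD, with MMP1 at 16.8 and 14.1 and MMP10 at 6.04 and 5.47 CPM, and in KAT2A_KD well above it, with MMP1 at 93.2 and 72.1 and MMP10 at 50.2 and 33.8 CPM. TIMP2, an inhibitor of these enzymes, was at 32.3 and 35.0 against 5.33 and 9.64 CPM (4.46-fold), with NT at 44.3 and 34.7. The membrane-bound MMP14 did not pass (log2 -0.18, adjusted p = 0.643). Of 16 plasminogen system and serpin genes, 5 were higher and 1 lower (4 to 6 higher and 0 lower without 1 library), among them the epidermal serpin SERPINB7 at 2536 and 2916 against 1104 and 915 CPM (2.70-fold, adjusted p = 5.2e-05).

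Ligands of the EGF receptor are released by keratinocytes to act on themselves and neighbours. Of 15 genes of the receptor family and its ligands and feedback regulators, 8 were higher and 0 lower (median log2 1.27), with 5 higher without KAT2B_KD 1. TGFA was at 153 and 159 CPM against 50.5 and 51.9 (3.04-fold, log2 1.61, SE 0.15, adjusted p = 1.94e-06). EREG was at 145 and 90.8 against 31.3 and 37.1 CPM (3.44-fold). AREG was at 357 and 229.7 against 119.5 and 123 CPM (2.42-fold). KAT2AB_KD was above both NT libraries for these 3 ligands, and KAT2B_KD below. Their receptor EGFR did not pass (log2 0.48, adjusted p = 0.462). Of the feedback inhibitors of the pathway, SPRY4 was at 11.5 and 9.05 against 3.65 and 2.17 CPM (3.57-fold). DUSP6 was at 49.2 and 28.8 against 16.2 and 15.8 (2.44-fold).

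Cytokines and antimicrobial genes moved in part. Of 21 cytokine and chemokine genes 4 were higher and 1 lower. IL1B was at 43.7 and 40.9 CPM against 6.27 and 11.3 (4.78-fold). IL1A was at 78.0 and 56.1 against 18.2 and 18.3 CPM (3.67-fold). For both interleukins, signals released by damaged keratinocytes, NT overlapped KAT2B_KD. The 1 lower gene was CXCL14, a chemokine made by resting epidermis, at 676 and 404 against 3908 and 2164 CPM (log2 -2.49, SE 0.40, adjusted p = 0.000507), with NT between them at 2137 and 2014. Of 22 barrier stress and antimicrobial genes 8 were higher and 0 lower, with 5 higher without KAT2AB_KD 1. S100A7 (psoriasin) was at 782 and 467 against 109.9 and 53.1 CPM (7.67-fold, adjusted p = 0.000185), and its near copy S100A7A had a ratio to it of 0.727 to 0.752 in the 4 libraries, so the pair is uncertain. RNASE7, an antimicrobial ribonuclease, was at 12.6 and 11.6 against 2.71 and 1.94 CPM (5.20-fold). The stress keratin KRT16 did not pass (log2 0.03, adjusted p = 0.976).

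In the AP-1 and small MAF family 4 of 12 were higher and 1 lower, with 1 higher and 1 lower without KAT2B_KD 1 and 2 and 1 without KAT2AB_KD 2. MAFF, a small MAF protein, was at 34.5 and 27.7 CPM against 8.51 and 6.73 (4.09-fold). JDP2, a repressor of AP-1, was at 2.31 and 1.67 against 8.60 and 5.90 CPM (log2 -1.86, adjusted p = 0.000569). FOS (log2 0.02, adjusted p = 0.987) and JUNB (log2 0.23, adjusted p = 0.841) did not pass.

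Oxidative stress (NRF2) genes divided, with 2 of 20 higher and 7 lower, and 2 higher and 1 lower without KAT2B_KD 1 (2 and 2 without KAT2AB_KD 2). HMOX1, which breaks down haem, was at 72.5 and 46.8 CPM against 8.89 and 3.36 (9.84-fold, log2 3.30, SE 0.40, adjusted p = 3.57e-05). TXNRD1, thioredoxin reductase, was at 74.6 and 83.3 against 24.3 and 30.1 CPM (2.90-fold). The lower members included enzymes of the pentose phosphate pathway and ferritin chains, and none of the 7 passed without each library. TKT, a transketolase, was at 242 and 137 against 581 and 363 CPM (log2 -1.32, adjusted p = 0.00237), with an adjusted p of 0.0519 without KAT2B_KD 1. FTH1, the ferritin heavy chain, was at 447 and 413 against 1312 and 871 CPM (log2 -1.34, adjusted p = 0.0109), with 0.13 without KAT2B_KD 1 and 0.0736 without KAT2AB_KD 2. Of 26 hypoxia and glycolysis genes 7 were higher and 1 lower, with 2 and 1 without KAT2B_KD 1, 4 and 2 without KAT2AB_KD 1 and 7 and 0 without KAT2AB_KD 2. Hexokinase 2, HK2, was at 323 and 327 CPM against 105 and 136 (2.71-fold), and BNIP3L, a receptor for mitochondrial removal, also passed without each library (log2 0.97, adjusted p = 0.00263).

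Of 24 mesenchymal and TGF-beta response genes, 7 were higher and 1 lower, with 4 and 1 without KAT2B_KD 1. THBS1, which encodes the matrix protein thrombospondin 1, was at 737 and 725 CPM against 148 and 178 (4.49-fold, log2 2.17, SE 0.25, adjusted p = 2.19e-05). PMEPA1, a feedback inhibitor of TGF-beta signalling, was at 98.9 and 64.7 against 23.9 and 22.7 CPM (3.51-fold). The lower gene was VIM, the intermediate filament vimentin, at 2.97 and 1.06 against 13.0 and 9.27 CPM (log2 -2.47, SE 0.37, adjusted p = 0.000248), with NT at 3.77 and 1.79, overlapping KAT2AB_KD. VIM overlaps an antisense gene and the strand setting of the counting is not given. SNAI2 (log2 0.34, adjusted p = 0.48) and FN1 (log2 0.67, adjusted p = 0.35) did not pass. Of 20 gap and tight junction genes 7 were higher and 1 lower, with 3 and 0 without KAT2B_KD 1, 7 and 0 without KAT2AB_KD 2 and 6 and 0 without KAT2B_KD 2. The claudin CLDN17 was at 42.3 and 44.6 CPM against 2.71 and 0.747 (25.7-fold, adjusted p = 0.000127).

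Interferon response genes had a count that rested on single libraries. Of 37 tested, 8 were higher and 1 lower (median log2 0.90), with 17 and 0 without KAT2AB_KD 1, 3 and 2 without KAT2AB_KD 2, 3 and 1 without KAT2B_KD 2 and 7 and 0 without KAT2B_KD 1. IFI27 was at 254 and 428 CPM against 58.5 and 36.1 (7.21-fold, log2 2.85, SE 0.35, adjusted p = 3.69e-05). IFI44 was at 4.70 and 13.4 against 1.68 and 1.42 CPM (5.84-fold). SAMD9, an antiviral factor, was at 81.5 and 170.0 against 32.3 and 41.5 CPM (3.41-fold). These were the 3 members that passed without each library, and for each of them KAT2AB_KD 2 was above KAT2AB_KD 1. MX1 (log2 1.10, adjusted p = 0.0826) and ISG15 (log2 0.27, adjusted p = 0.807) did not pass.

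Genes of the cell cycle had few reads in both groups. Of 30 DNA replication genes 13 were lower and 0 higher (median log2 -0.94), with 8 lower without KAT2AB_KD 1 and 7 without KAT2B_KD 2. Of 30 mitosis genes 13 were lower and 0 higher (median log2 -1.25), with 7 lower without KAT2AB_KD 1 and 8 without KAT2B_KD 2. Without each library in turn 3 replication and 4 mitosis genes passed. The edgeR fit of the 4 libraries alone called 1 replication gene and 0 mitosis genes (11 and 11 at an unadjusted p under 0.05), where DESeq2 on all libraries called 14 and 16 lower. RRM2, a subunit of ribonucleotide reductase, was at 2.97 and 3.96 CPM against 11.0 and 15.2 (log2 -1.92, SE 0.25, adjusted p = 6.09e-05). MCM5, part of the replicative helicase, was at 3.21 and 4.56 against 9.73 and 8.67 CPM (log2 -1.23). TPX2, a spindle assembly factor, was at 3.95 and 3.57 against 10.6 and 9.94 CPM (log2 -1.44, adjusted p = 0.000801). NT overlapped KAT2AB_KD for each of these 3 genes, as with TPX2 at 3.94 and 2.73 CPM in NT, while KAT2A_KD stood higher, at 7.37 and 11.0. The mitotic kinase CDK1 had the same order, at 1.07 and 2.05 CPM in KAT2AB_KD, 5.14 and 4.86 in KAT2B_KD and 2.19 and 1.32 in NT (log2 -1.66). At the Confluent stage TPX2 was many times more abundant, at 157 and 199 CPM in KAT2AB_KD and 141 and 189.6 in KAT2B_KD. The kinetochore gene NDC80 had 3 reads in KAT2AB_KD, at 0.0824 and 0.152 CPM against 1.31 and 1.35, a ratio of 11.2 with a 95% counting interval of 3.50 to 57.2. The replication clamp PCNA did not pass (log2 -0.62, adjusted p = 0.0626).

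Of 31 MYC and ribosome biogenesis genes 1 was higher and 5 lower, with 0 and 2 without KAT2AB_KD 2, 0 and 3 without KAT2B_KD 1 and 0 and 6 without KAT2B_KD 2. MYCL, a paralog of MYC, was at 14.1 and 19.4 CPM against 64.5 and 53.9 (log2 -1.82, SE 0.26, adjusted p = 0.000165), whereas MYC itself had log2 -0.06 (adjusted p = 0.915). The complexes that hold KAT2A and KAT2B showed few calls. Of 33 other SAGA and ATAC subunits 0 were higher and 1 lower (0 and 2 without KAT2AB_KD 2, 2 and 1 without KAT2B_KD 2, 1 and 0 without KAT2AB_KD 1): TADA2A, the adaptor specific to ATAC, at 2.22 and 4.94 CPM against 7.11 and 8.74 (log2 -1.14, adjusted p = 0.0468), lost without KAT2AB_KD 1 (0.32), KAT2B_KD 1 (0.103) or KAT2B_KD 2 (0.162). Of 19 other lysine acetyltransferases 0 were called in this test (0 in the 4 libraries alone, 1 lower without either KAT2AB_KD library, 1 higher and 1 lower with DESeq2, 5 at an unadjusted p under 0.05). Of 18 deacetylases 1 was higher and of 26 bromodomain and other acetyl-lysine readers 2 were lower, none of which passed without each library. The deacetylase call was lost without KAT2AB_KD 2, and the readers had 2 higher and 2 lower without KAT2B_KD 2 and 1 lower without KAT2B_KD 1 or KAT2AB_KD 2. The shares called of the subunits, acetyltransferases, deacetylases and readers lay below the 11.0% of all genes.

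The remaining lists had at most 6 calls each. The shares called of HOX, retinoid, desmosome, p53 and cholesterol genes were above the 11.0% of all genes, that of Notch genes was close to it, and those of amino acid stress, simple keratin and antigen presentation genes were below. Of 26 HOX and developmental factors 3 were higher and 3 lower, with 1 and 0 without KAT2B_KD 1 and 2 and 0 without either KAT2AB_KD library or 2 and 1 without KAT2B_KD 2. SOX9, a factor of the hair follicle and of proliferating keratinocytes, was at 58.3 and 47.4 CPM against 14.8 and 14.6 (log2 1.84, SE 0.29, adjusted p = 0.000396), with NT between at 29.3 and 19.8. Of 14 retinoid and vitamin D genes 2 were higher and 1 lower (1 and 0 without KAT2AB_KD 1 or KAT2B_KD 1, 2 and 0 without KAT2AB_KD 2). ALDH1A3, which makes retinoic acid, was at 731 and 749.7 CPM against 148 and 153 (4.91-fold, adjusted p = 1.01e-06), and NT, at 776 and 616, overlapped KAT2AB_KD.

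Of 30 cholesterol and fatty acid synthesis genes 2 were higher and 2 lower (1 and 1 without KAT2AB_KD 1 or KAT2B_KD 1, 2 and 0 without KAT2B_KD 2, 3 and 0 without KAT2AB_KD 2), with the desaturase FADS2 at 67.1 and 37.2 against 17.2 and 12.6 CPM (3.50-fold). Of 32 genes of the amino acid stress response 2 were higher and 1 lower (2 and 5 without KAT2B_KD 2, 1 and 0 without KAT2B_KD 1, 1 and 1 without KAT2AB_KD 1), with the mitochondrial folate enzyme MTHFD2 at 85.7 and 111 against 43.0 and 49.8 CPM (2.12-fold). NT, at 129.6 and 129 CPM, was above both groups for MTHFD2. Of 16 desmosome genes 2 were higher and 1 lower (1 and 0 without KAT2B_KD 1, 1 and 1 without KAT2AB_KD 2, 2 and 0 without KAT2AB_KD 1, 3 and 0 without KAT2B_KD 2), with plakophilin 2 (PKP2) at 22.1 and 9.89 against 4.02 and 5.53 CPM (3.31-fold). Of 26 p53 targets 1 was higher and 3 lower (0 or 1 higher and 0 to 3 lower without 1 library) and of 18 Notch genes 2 were lower (0 to 2 without 1 library), none of which passed without each library. Of 15 simple epithelial and hair keratins the 1 higher was KRT80, described above, and 2 were lower without KAT2B_KD 2. Of 18 antigen presentation genes 0 were called in edgeR's test, with 3 at an unadjusted p under 0.05 and 1 higher and 1 lower with DESeq2 or without KAT2B_KD 2, and 1 lower without KAT2AB_KD 1.

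Among genes whose log2 CPM averaged 1 or more over the 24 libraries and whose groups did not overlap, those with the largest differences were mostly envelope genes at the upper end and genes with few reads at the lower end. Of the 12 highest, 8 were LCE3A to LCE3E, LCE5A, LCE2C and KPRP. The others included TCN1, a vitamin B12 binding protein, at 73.8 and 26.6 CPM against 0.281 and 0.747 (92.5-fold, log2 6.53, SE 0.71, adjusted p = 1.98e-05). TCN1 was 52.8 and 31.9 CPM in KAT2A_KD and 3.15 and 0.754 in NT. SPINK7, a protease inhibitor, was at 16.1 and 14.7 against 0.281 and 0.299 CPM (7 reads in KAT2B_KD). HS3ST2, a heparan sulphate sulphotransferase, and the co-chaperone BAG2 had 0 reads in KAT2B_KD and were at least 5.40-fold and 3.17-fold higher when 3 reads are allowed for the empty group. Both had calls that were lost, HS3ST2 without KAT2B_KD 1 (adjusted p = 0.0521) and BAG2 without KAT2AB_KD 1 (0.112), KAT2B_KD 1 (0.128) or KAT2B_KD 2 (0.0876).

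At the lower end, DAPL1, a gene of early epithelial differentiation, was at 5.19 and 3.35 CPM against 99.7 and 55.7 in KAT2B_KD (log2 -4.19, SE 0.47, adjusted p = 1.63e-05), with NT between at 27.2 and 47.3. The small membrane protein gene SMIM22 was at 1.32 and 0.608 against 19.2 and 7.40 CPM (log2 -3.78). The transcription factor MECOM was at 0.330 and 0.0761 against 2.62 and 2.02 CPM (log2 -3.48). Both had every KAT2AB_KD library below every KAT2B_KD library. Of 6 genes with 0 reads in KAT2AB_KD, LRRC61 was at 2.62 and 2.02 CPM in KAT2B_KD, at least 19.3-fold lower in KAT2AB_KD, and SLC8A1, a sodium-calcium exchanger, at 0.935 and 1.05, at least 8.40-fold lower. The other 4 (MCCD1, SKA1, ZNF367 and XRCC2) lost their calls when a library was left out. MCCD1, at least 19.6-fold lower, had adjusted p-values of 0.0641 without KAT2AB_KD 1, 0.202 without KAT2B_KD 1 and 0.0873 without KAT2AB_KD 2. SKA1, a spindle gene at least 5.60-fold lower, had 0.26 without KAT2B_KD 1 and 0.0613 without KAT2AB_KD 2. ZNF367, at least 3.85-fold lower, had 0.064 without KAT2AB_KD 1, 0.0864 without KAT2AB_KD 2 and 0.126 without KAT2B_KD 2. XRCC2, a DNA repair gene at least 3.15-fold lower, had between 0.0602 (without KAT2B_KD 2) and 0.131 (without KAT2AB_KD 2), and its call was lost without any of the 4 libraries. The DNA helicases BLM and HELLS had 1 read each in KAT2AB_KD, with ratios of 29.4 (95% counting interval 4.86 to 1203) and 16.8 (2.61 to 705), and the BLM call was lost without KAT2AB_KD 1 (0.115), KAT2AB_KD 2 (0.0753) or KAT2B_KD 2 (0.494).

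The position of NT was recorded for each of the 1739 genes called. NT lay between KAT2AB_KD and KAT2B_KD, apart from both, for 727 genes (41.8%). It overlapped KAT2AB_KD and was apart from KAT2B_KD for 443, and overlapped KAT2B_KD and was apart from KAT2AB_KD for another 443. It lay beyond KAT2AB_KD for 65 and beyond KAT2B_KD for 27, overlapped both for 30, and for 4 the groups themselves overlapped. With 2 libraries a group these positions are descriptions. All 22 SPRR and LCE genes called lay in the first class. Of the granular layer and envelope genes called, 8 lay there, and for 5 NT was beyond KAT2AB_KD. For 3 more NT overlapped KAT2AB_KD and for 1 it overlapped KAT2B_KD. Lipid barrier genes lay mostly in the class overlapping KAT2AB_KD, and MMP1, MMP3 and MMP10 in the class overlapping KAT2B_KD.

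The difference labelled as KAT2A knockdown was compared with and without the KAT2B knockdown label. These backgrounds are set by label, since KAT2AB_KD 2 had more KAT2B than either KAT2B_KD library. The test took the difference between KAT2AB_KD against KAT2B_KD and KAT2A_KD against NT, which share no library. This difference was called for 876 genes (5.56% of 15757), 536 higher (3.40%) and 340 lower (2.16%). Leaving out 1 of the 8 libraries gave 450 to 947 calls, with the lowest counts without KAT2A_KD 2 (450), NT 2 (477), KAT2B_KD 1 (506), NT 1 (535) or KAT2A_KD 1 (572). Of genes averaging a log2 CPM of 1 or more over the 24 libraries, LCE3A had the highest difference, with log2 7.03 in the KAT2B knockdown background and -0.55 (SE 0.37) in KAT2A_KD against NT, a difference of 7.58 (adjusted p = 7.75e-06). For LCE3D the values were 6.73 and -0.41 (difference 7.14, adjusted p = 1.03e-08). The SPRR and LCE list had 17 of 25 genes higher and 0 lower in this test, the granular list 15 of 25 higher, the lipid barrier list 13 of 25 higher and the mitosis list 19 of 30 lower. For mitosis genes the median log2 fold change was -1.25 in the KAT2B knockdown background and 1.16 in KAT2A_KD against NT. The interferon list had 1 gene higher and 7 lower, with medians of 0.90 and 1.28. How far these list counts rest on single libraries was not tested.

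For some other genes the difference between the 2 backgrounds did not pass. MMP3 had log2 3.13 (SE 0.40) and 3.17 (SE 0.42), with a difference of -0.03 (SE 0.54, adjusted p = 0.991). MMP10 had 3.24 and 2.86 (difference 0.38, SE 0.34, adjusted p = 0.587), and MMP1 3.50 and 2.42 (difference 1.08, SE 0.34, adjusted p = 0.0688). A p above the threshold does not show that the sizes are equal. TCN1 had 6.53 and 4.42 (difference 2.11, SE 0.93, adjusted p = 0.21). VIM was lower by 2.47 on the log2 scale in the KAT2B knockdown background and had 1.37 (SE 0.37) in KAT2A_KD against NT, and the difference passed (-3.84, adjusted p = 0.000236).

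**Figure D5:**
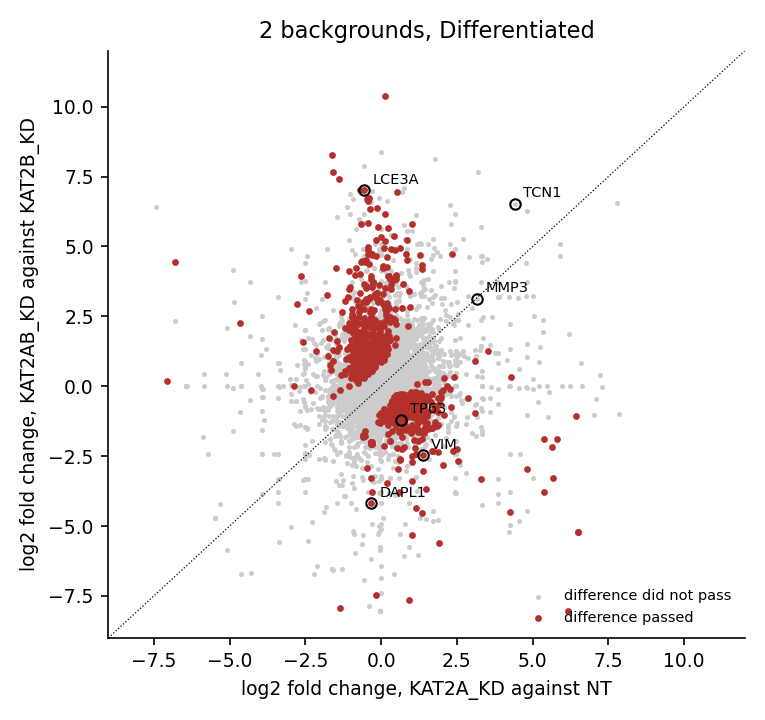
Log2 fold change of KAT2AB_KD against KAT2B_KD (y axis) by that of KAT2A_KD against NT (x axis) at the Differentiated stage for 15757 genes. Red points are the 876 genes whose difference between the backgrounds passed, and the dotted line marks equal values. MMP3 lies close to the line, LCE3A far above it.

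The comparison was set beside the same genotypes at the Confluent stage, before differentiation. The change in the difference between stages was called for 318 genes (2.02%), 181 higher (1.15%) and 137 lower (0.869%), with 137 to 340 calls without 1 of the 8 libraries. The lowest counts were without KAT2B_KD Confluent 1 (137), KAT2B_KD Confluent 2 (156), KAT2B_KD Differentiated 1 (174), KAT2AB_KD Confluent 2 (177), KAT2AB_KD Confluent 1 (206) and KAT2AB_KD Differentiated 1 (211). TGFA, an EGF receptor ligand, was at 40.5 and 36.4 CPM in Confluent KAT2AB_KD and 38.7 and 38.2 in Confluent KAT2B_KD, where the groups overlapped, before the 3.04-fold difference at Differentiated (difference between stages 1.61, adjusted p = 0.000377). ALDH1A3 was at 341 and 349 against 409 and 416 CPM at Confluent and 731 and 749.7 against 148 and 153 at Differentiated (difference 2.55, adjusted p = 0.000144). Of the 15 EGF receptor list genes, 6 were called higher here, as were IL1A and IL1B. That list count was not taken without a library.

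The other direction included genes whose difference was larger before differentiation. SPRR1B was at 98.4 and 95.9 CPM in Confluent KAT2AB_KD and 6.31 and 15.0 in Confluent KAT2B_KD, against overlapping groups at Differentiated (difference between stages -3.14, adjusted p = 0.00235). SPRR1A (difference -2.84, adjusted p = 0.00549) and SPRR3 (-3.50, adjusted p = 0.0067) did the same, as did KRTDAP, an early differentiation gene, at 36.6 and 34.1 against 1.48 and 5.30 CPM at Confluent (-3.75, adjusted p = 0.00293). Results between stages for single genes rested in part on single Confluent libraries. Without either Confluent KAT2B_KD library, 6 of the named genes followed had a weaker result and 4 the same. Without either Confluent KAT2AB_KD library, 4 had a weaker result and 6 the same. MMP1 was apart at both stages, at 44.4 and 55.0 against 9.50 and 11.3 CPM at Confluent, and its difference between stages was 1.24 (SE 0.34, adjusted p = 0.0699). The LCE3 genes had at most 2.43 CPM in any of the 4 Confluent libraries, and none of their differences between stages passed (adjusted p of 0.0675 for LCE3C and above that for the others).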

How the data were processed

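PolyA-selected RNA of nTERT-1 keratinocytes was sequenced single-end from a directional kit, per the labels. Bowtie2, featureCounts, DESeq2, FastQC and hg19 are named in the submitters' processing notes, with no versions. The counts per gene were deposited by the authors as raw counts, and a table of the same counts divided by size factors, a normalised signal per the file headers, was used only for a check against the counts (largest relative deviation 5e-07). Of 28 gene symbols turned into dates, 26 were restored, and 1 column that matches no sample was not used.

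The main test was edgeR 4.0.16 in R 4.3.3 (limma 3.58.1), with TMM factors and a filter on low counts by group (15757 of 26364 genes). It used 1 quasi-likelihood fit over 24 libraries in 12 groups (8010178 to 16054003 counts per library) and Benjamini-Hochberg adjustment. The test was also run on simulated counts, drawn with 1 dispersion per gene for all groups. Such counts cannot show whether the groups of these data share their spread. Groups of 2 limit the precision, and counting intervals cover counting error only. CPM values are not per gene length, so they are read within a gene, not ranked between genes. Alternatives were RLE size factors, DESeq2 1.42.0, no filter, the compared groups alone, a replicate block, and leaving out each library. Named genes were the 12 at each end of the log2 fold changes, of those whose log2 CPM averaged 1 or more and whose groups were apart, up to 4 members of each of 38 lists by lowest p, members whose outcome is stated, and, for the other 2 tests, the 6 highest and 6 lowest. The genes compared and the lists were chosen with earlier results of these data known. Promoter sequences are from RefSeq (GRCh38.p14), and no coordinates of hg19 are given. Results for a few genes are not reported here.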

Additional observations from a re-analysis of the deposited data

Results flagged for a closer look

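The difference between KAT2AB_KD against KAT2B_KD and KAT2A_KD against NT passed for 876 genes in edgeR's test, and those with the largest values are given here. Of genes averaging a log2 CPM of 1 or more and with over 3 reads in each group, the highest differences of log2 fold changes were those of the LCE3 genes, at 7.58 for LCE3A, 7.16 for LCE3E, 7.14 for LCE3D, 7.05 for LCE3B and 6.71 for LCE3C. KAT2AB_KD was higher than KAT2B_KD in every pair of libraries for these 5 genes, while KAT2A_KD did not exceed NT in LCE3A. The other genes had 3 reads or fewer in a compared group, so that only the adjusted p is given. It was 0.0155 for PLA2G16, 0.0147 for MCCD1, 0.0239 for SPOCD1, 0.0132 for PRKCQ, 0.0238 for CDC25C, 0.0261 for TRAIP and 0.00628 for ZNF367, each of them at low levels in the Differentiated libraries.

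The difference between stages passed for 318 genes. SPINK7, a protease inhibitor, had a value of 5.56 on the log2 scale, from 16.1 and 14.7 CPM in Differentiated KAT2AB_KD and 0.281 and 0.299 in Differentiated KAT2B_KD but 0.159 and 0.416 against 0.223 and 0.289 at Confluent. The rest had a group at 3 reads or fewer, again with only the adjusted p given. Among genes near 0 at Confluent and higher in KAT2AB_KD at Differentiated it was 0.0481 for RNF222 (19.9 and 23.4 against 1.96 and 1.72 CPM), 0.0187 for SMPD3 and 0.0161 for DENND2D (101 and 129.8 against 14.9 and 13.4 CPM). HS3ST2 (0.0386) and SLC8A1 (0.00593) were instead more abundant at Confluent in both genotypes, and FOXA2 (0.00923) was at 0.577 and 1.6 against 0 and 0.0747 CPM at Differentiated and 1.16 and 1.80 against 1.85 and 3.86 at Confluent. DAPL1 had an adjusted p of 0.000324, with 1.32 and 1.39 CPM in KAT2AB_KD and 0.148 and 0.0965 in KAT2B_KD at Confluent and the opposite order at Differentiated. S100A7 (0.0226), S100A7A (0.0386), TGM3 (0.0151) and THEM5 (0.0146) had 0 reads in both Confluent KAT2B_KD libraries and reads in both Confluent KAT2AB_KD libraries, as with TGM3 at 1.69 and 1.11 CPM.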

How the results depend on the processing

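The number of genes called between KAT2AB_KD and KAT2B_KD was 1748 with RLE size factors, 2197 without a filter and 2230 with DESeq2, and 386 with the 4 libraries alone, where 83.2% were higher against 58.9% in the fit of all libraries. Without each of the 4 libraries in turn it was 682 to 1956. The difference between backgrounds gave 1337 calls without a filter, 347 with the 8 libraries alone and 450 to 947 without a library. The difference between stages gave 688 without a filter, 610 with DESeq2, 13 with the 8 libraries alone and 137 to 340 without a library. The cause was not tested, except that the smaller fits hold fewer samples. Of the 1739 genes called, 1713 were also called with DESeq2, with the same sign. No label says that a replicate number marks a shared culture or day, so the numbers were not taken as pairs. Same-numbered deviations correlated at 0.297 between the groups compared and over 0.1 in 37 of 66 pairs of groups (median 0.118), and with a replicate block the counts were 1997, 1003 and 388. Genes named above that did not pass and whose sign turned when a library was left out had log2 values of -0.53 to 0.96 for FOS, -0.30 to 0.042 for GRHL3, -0.92 to 1.90 for ISG15, -0.19 to 1.52 for KAT2B, -0.48 to 0.19 for KRT14, -0.29 to 0.46 for KRT16, -0.84 to 0.20 for KRTDAP, -0.38 to 0.22 for MYC, -0.33 to 0.80 for SNAI2, -0.18 to 0.29 for SPRR1B, -0.13 to 0.26 for SPRR3 and -0.053 to 0.29 for TGM3 without 1 library. With 2 libraries a group and 3 reads or fewer in some, the depth limits the genes near 0 first.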
